A study of Caenorhabditis elegans with 16 samples.

Results

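The genes named *dod* (downstream of DAF-16) and *dct* (DAF-16/FOXO controlled, germline tumor affecting) were followed through the 4 groups of this study, together with *lea-1*, *nnt-1* and *scl-1*, which are grouped with them as genes downstream of DAF-16. All genes whose symbol on the array is *dod* or *dct* and a number were taken, and the rule itself uses no measured value, although it was written when results of these data were already known. This gave 28 of the 25498 genes tested, namely 9 *dod* genes, 16 *dct* genes and the 3 others. Each was read by 1 probe set, so that no choice between probe sets was needed. *dod-21* was not analysed here, because its 2 probe sets also list the gene *cld-1*. *dct-10* is annotated as a pseudogene, and the other 27 genes as protein coding.

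DAF-16 is the FOXO transcription factor of *Caenorhabditis elegans*. Signalling from DAF-2, the insulin receptor of the worm, keeps DAF-16 out of the nucleus when food is plentiful, and loss of that signal lets DAF-16 act on genes for stress resistance, metabolism and long life. The *dod* genes were named from screens for transcripts that differ between worms with low DAF-2 and worms with low DAF-16 activity, and they include genes that are raised and genes that are lowered when DAF-16 is active. The *dct* genes were named from a search for DAF-16-regulated genes that alter the growth of a germline tumor. The encoded proteins have little else in common. *dct-1* encodes a BNIP3-like receptor for the removal of damaged mitochondria, *nnt-1* the mitochondrial transhydrogenase that makes NADPH, *lea-1* a late embryogenesis abundant protein known for protection against drying, and *scl-1* a secreted protein of the SCP family that long-lived *daf-2* mutants need for their long life. *dod-17*, *dod-22*, *dod-24* and *dct-17* encode proteins with CUB-like domains, a family with many members that respond to infection.

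Whole worms of N2, the wild-type strain, and of *alfa-1(ok3062)*, a deletion mutant of the worm orthologue of C9orf72, were measured with food or after 6 hr without food, with 4 arrays in each of the 4 groups. The strain label is IW314 for N2 and IW313 for the mutant, but another label gives IW314 for all samples and the methods name the mutant RB2260. The age is labelled L3, while the methods give L3/L4 larvae. The labels put the fed worms into buffer with food for the same 6 hr, whereas the methods say that they were frozen at once, so that the starved groups may differ from the fed groups in time and buffer as well as in food. The mutant strain was backcrossed to N2, worms of a strain were divided among tubes, and separate cultures are not described for the replicates. The p-values therefore rest on the spread of these samples alone, and that spread may be technical.

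The deposited values are log2 expression values, and their median per array lay between 5.80 and 5.85. The level of *alfa-1* was lower in the mutant than in N2, with a log2 fold change of -1.64 in fed and -1.89 in starved worms, and no mutant array reached any N2 array. Arrays of a fed group correlated at 0.993 to 0.995 with each other. Starved N2 replicate 3 correlated at 0.983 to 0.987 with the other starved N2 arrays. Starved mutant replicates 1 and 2 each correlated at 0.986 to 0.993 with their group. At an adjusted p under 0.05 from limma, 10.8% of all genes tested were higher and 11.6% lower in starved than in fed N2. In the mutant 10.9% were higher and 14.3% lower. Of 11 molting genes, 10 were lower in starved than in fed N2 and 3 were lower in the starved mutant. Their mean log2 level was 10.39 to 10.70 in fed N2, 8.68 to 10.15 in starved N2 with the lowest value in replicate 3, 10.50 to 10.67 in the fed mutant and 9.94 to 10.26 in the starved mutant. Germline markers were higher after starvation for 5 of 12 genes in N2 and for 1 in the mutant, with a mean log2 level of 10.35 to 10.43 in fed N2, 10.54 to 10.76 in starved N2, 10.30 to 10.44 in the fed mutant and 10.24 to 10.50 in the starved mutant. Intestine markers were lower for 2 of 9 genes in each strain, and their mean log2 level was between 9.91 and 10.21 in all groups. Of 7 sperm and yolk genes tested, 3 were higher in starved N2, and 2 were higher and 2 lower in the starved mutant. No gene of these lists passed between the strains, but the lists were not level in starved worms. All 11 molting genes were higher in the starved mutant than in starved N2 (median log2 fold change 0.61), 5 of them at an unadjusted p under 0.05 from limma. All 12 germline genes were lower (median -0.17), 6 of them at that threshold, which 12.1% of all genes met in either direction. In fed worms the medians were 0.10 and -0.01. In whole worms, fewer cells of a type and less RNA per cell cannot be told apart, and the part of these marker genes in the results below was not tested.

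Starved N2 differed from fed N2 in 12 of the 28 genes, 6 higher and 6 lower, at an adjusted p under 0.05 from limma. That is 42.9% of the set, where 22.4% of all genes tested passed, 10.8% higher and 11.6% lower. In *alfa-1(ok3062)*, 13 genes passed, 5 higher and 8 lower, or 46.4% of the set against 25.3% of all genes, of which 10.9% were higher and 14.3% lower. By name, 5 of 9 *dod* genes passed in each strain, 4 of 16 *dct* genes in N2 and 6 in the mutant, and *lea-1* and *nnt-1* in both. The genes did not move in 1 direction as a set, and the median log2 fold change was -0.02 in N2 and -0.12 in the mutant, beside 0.01 and -0.02 over all genes. The median size of the change was 0.27 in N2 and 0.39 in the mutant on the log2 scale, against 0.17 and 0.18 over all genes. Arrays of the fed and starved groups did not overlap for 13 members in N2 and 15 in the mutant, where 24.4% and 27.4% of all genes showed no overlap.

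**Figure D1:**
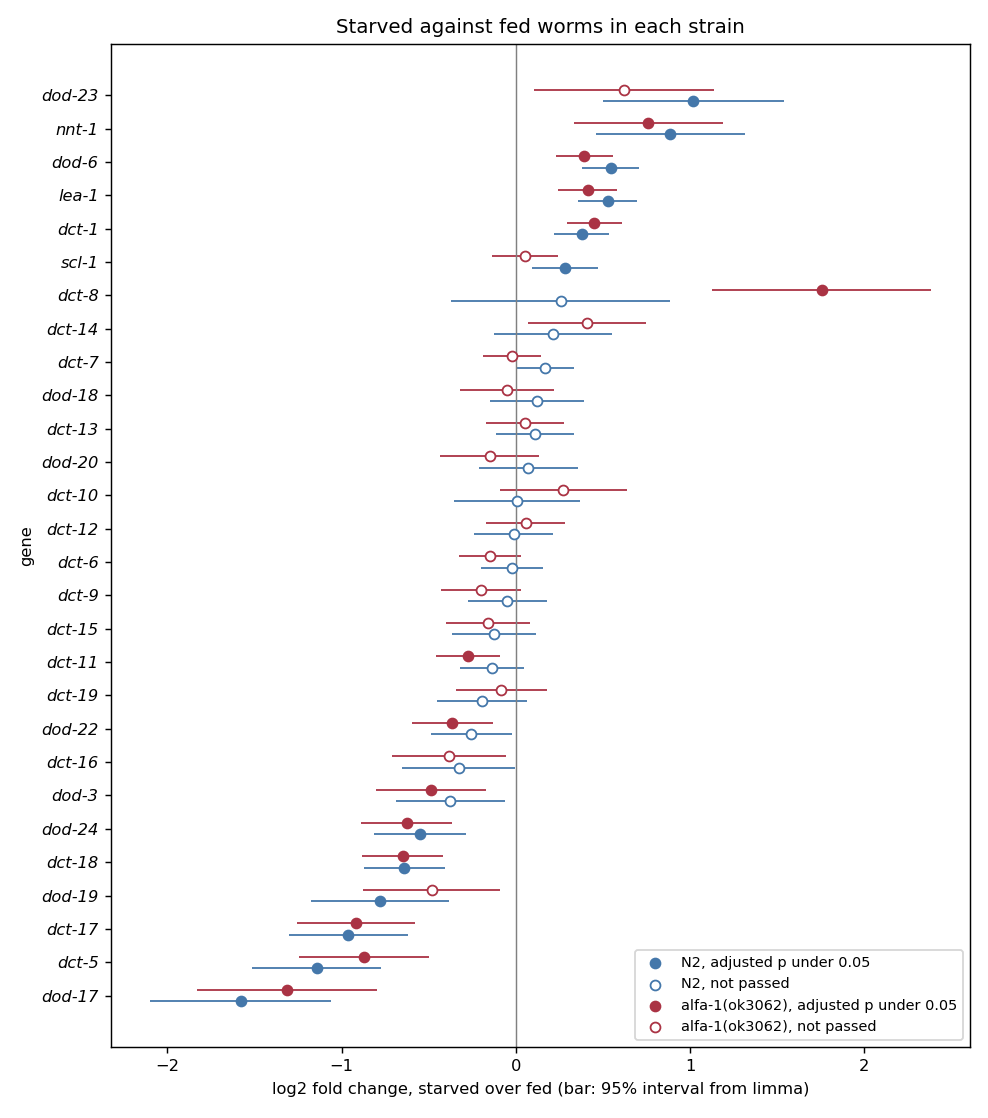
Log2 fold change of starved over fed worms (x axis) for each of the 28 genes (y axis) in N2 and in *alfa-1(ok3062)*, with 95% intervals from limma. Filled points passed at an adjusted p under 0.05, and *dod-17* lies lowest in both strains, at -1.58 in N2 and -1.32 in the mutant.

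The starvation comparisons of the strains use separate arrays. In both, 9 genes passed, 75.0% of those in N2 and 69.2% of those in the mutant, and all 9 kept their direction. Over all genes tested, 5707 passed in N2 and 6440 in the mutant, and 3700 passed in both in the same direction, 14.5% of all genes. The 75.0% and 69.2% are shares of the genes that passed in a strain. They are to be set beside 3700 of 5707 and 3700 of 6440, and not beside the 14.5%. In opposite directions, 0 of all genes passed in both, so that a kept direction was not particular to the set. *dct-1*, *dod-6*, *lea-1* and *nnt-1* were the 4 that rose in both strains, and *dod-17*, *dct-5*, *dct-17*, *dct-18* and *dod-24* the 5 that fell. As a description across genes, which are not independent replicates, the fold changes of the 28 genes in the strains had a Pearson correlation of 0.837, beside 0.808 over all genes. The sign was the same in both strains for 24 of 28 genes, and the share of all genes with the same sign was not counted. Without *dct-8*, left out after its values were seen, the correlation was 0.960.

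The mitophagy receptor gene *dct-1* rose in both strains with little spread between arrays. The fed N2 arrays read 10.42, 10.41, 10.37 and 10.34 for it and the starved N2 arrays 10.77, 10.76, 10.83 and 10.69, a rise of 1.30-fold (log2 fold change 0.38, standard error 0.0746, adjusted p = 0.00190 from limma). The fed mutant arrays read 10.47, 10.19, 10.35 and 10.24 and the starved mutant arrays 10.73, 10.72, 10.89 and 10.73, a rise of 1.37-fold (log2 fold change 0.45, standard error 0.0746, adjusted p = 0.000498). In either strain each starved array was above each fed array.

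*nnt-1*, which supplies NADPH to mitochondria, had the largest rise among the 4 genes that rose in both strains. Its log2 values in fed N2 were 7.12, 7.37, 7.01 and 7.47, and in starved N2 8.44, 7.82, 8.70 and 7.55. The gain in N2 was 1.85-fold (log2 fold change 0.89, standard error 0.201, adjusted p = 0.00497 from limma), and replicates 1 and 3 lay well above replicates 2 and 4 among the starved arrays. In the mutant the fed values were 7.74, 7.33, 7.44 and 7.21 and the starved values 8.08, 8.34, 8.18 and 8.16, a gain of 1.69-fold (log2 fold change 0.76, adjusted p = 0.0115). Fed and starved arrays of *nnt-1* did not overlap in either strain.

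*lea-1* and *dod-6* rose by similar amounts. For *lea-1* the fed N2 arrays gave 10.04, 10.25, 10.15 and 10.18 and the starved ones 10.74, 10.73, 10.69 and 10.57, a rise of 1.44-fold (log2 fold change 0.53, standard error 0.0803, limma adjusted p = 0.000271). In the mutant *lea-1* went from 10.18, 10.14, 10.33 and 10.20 in fed to 10.68, 10.46, 10.76 and 10.60 in starved worms (1.33-fold, log2 fold change 0.41, adjusted p = 0.00166). The lowest starved array exceeded the highest fed array in both strains. For *dod-6* the fed N2 arrays gave 10.08, 10.20, 10.06 and 10.002 and the starved ones 10.52, 10.71, 10.63 and 10.67, a rise of 1.46-fold (log2 fold change 0.54, standard error 0.0773, limma adjusted p = 0.000161). In the mutant *dod-6* went from 10.04, 10.003, 10.18 and 10.16 to 10.60, 10.43, 10.56 and 10.37 (1.31-fold, log2 fold change 0.39, adjusted p = 0.00177). Again no starved array overlapped a fed array.

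Among the genes that fell, *dod-17*, a CUB-like gene, changed most in both strains. Its log2 values were 7.34, 7.74, 7.70 and 7.86 in fed N2 and 5.97, 6.44, 5.13 and 6.78 in starved N2. Its level was thus 2.99-fold lower in starved N2 (log2 fold change -1.58, standard error 0.244, adjusted p = 0.000300 from limma), and starved replicate 3, the array with the lowest molting genes, was the lowest of them. The fed mutant arrays gave 7.22, 7.10, 7.08 and 7.04 and the starved mutant arrays 5.91, 5.67, 5.65 and 5.94, which is 2.49-fold lower (log2 fold change -1.32, adjusted p = 0.00114). No starved array reached a fed array of the same strain.

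*dct-17*, another CUB-like gene, was lower by similar amounts in both strains. The fed N2 values were 8.65, 8.73, 8.95 and 8.54 and the starved N2 values 7.78, 7.84, 7.18 and 8.22, with replicate 3 again the lowest (1.95-fold lower, log2 fold change -0.96, standard error 0.160, limma adjusted p = 0.000543). In the mutant the values were 8.39, 8.48, 8.57 and 8.55 with food and 7.57, 7.46, 7.76 and 7.51 without (1.89-fold lower, log2 fold change -0.92, adjusted p = 0.000737). Fed and starved arrays stayed apart in both strains.

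*dct-5* fell in both strains, and 1 starved array in each lay above the rest of its group. The fed N2 arrays read 8.02, 8.38, 7.95 and 8.33 and the starved ones 7.51, 6.81, 6.91 and 6.89 (2.21-fold lower, log2 fold change -1.14, standard error 0.176, limma adjusted p = 0.000290). In the mutant, fed arrays read 7.95, 8.53, 8.46 and 8.03 and starved arrays 7.23, 7.27, 7.27 and 7.72 (1.83-fold lower, log2 fold change -0.87, adjusted p = 0.00214). The groups did not overlap in spite of the higher arrays, replicate 1 in N2 and replicate 4 in the mutant.

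*dct-18* gave nearly the same change in the strains. Its fed N2 arrays were at 8.70, 8.90, 8.92 and 8.91 and its starved N2 arrays at 8.03, 8.41, 7.98 and 8.46 (1.56-fold lower, log2 fold change -0.64, standard error 0.110, adjusted p = 0.000680 from limma). The mutant arrays were at 8.81, 8.85, 8.88 and 8.85 with food and at 8.36, 8.19, 8.02 and 8.21 without (1.57-fold lower, log2 fold change -0.65, adjusted p = 0.000581). Every starved array was below every fed array. *dod-24*, a CUB-like gene, stood at 10.78, 10.65, 11.07 and 10.79 in fed N2 and at 10.08, 10.16, 10.44 and 10.41 in starved N2 (1.47-fold lower, log2 fold change -0.55, standard error 0.124, limma adjusted p = 0.00478). In the mutant *dod-24* stood at 10.61, 10.48, 10.26 and 10.34 with food and at 10.05, 9.86, 9.57 and 9.70 without (1.54-fold lower, log2 fold change -0.63, adjusted p = 0.00186). Within each strain the starved arrays of *dod-24* were below the fed ones, starved N2 overlapped the fed mutant, and the starved mutant was the lowest of the 4 groups.

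**Figure D2:**
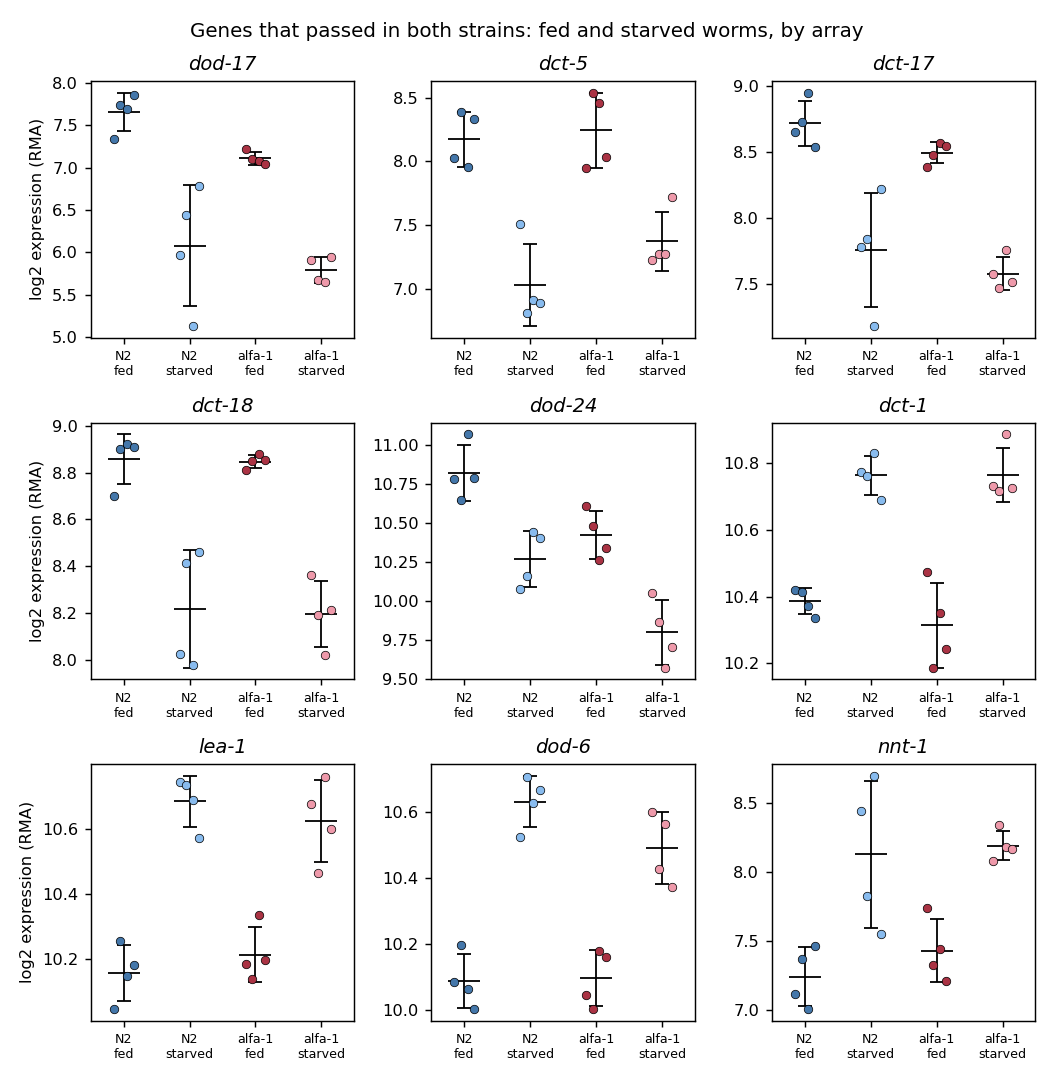
Log2 expression (y axis) of the 9 genes that passed in both strains, by group (x axis), with 1 point per array, the mean as a bar and 1 SD as whiskers. In each panel fed and starved arrays of a strain are apart, and the scale differs between panels.

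Other calls were made in 1 strain, and no difference between the strains in the starvation response passed for any gene of the set. In N2 and not in the mutant, *dod-23*, *dod-19* and *scl-1* passed. *dod-23* read 7.75, 7.68, 7.40 and 8.16 in fed and 9.42, 8.26, 8.35 and 9.04 in starved N2, a rise of 2.03-fold (log2 fold change 1.02, standard error 0.244, limma adjusted p = 0.00708). In the mutant *dod-23* read 7.66, 8.06, 7.71 and 7.50 with food and 7.83, 8.39, 8.56 and 8.63 without, a log2 fold change of 0.62 that missed the threshold (adjusted p = 0.0744). The lowest starved mutant array, replicate 1, lay among the fed arrays, and the strains did not differ in the response of *dod-23* by more than the spread (difference -0.40, 95% interval -1.13 to 0.33, adjusted p = 0.784).

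*dod-19* read 9.43, 9.20, 9.26 and 9.08 in fed and 8.35, 8.77, 7.76 and 8.96 in starved N2, with replicate 3 the lowest (1.72-fold lower, log2 fold change -0.78, standard error 0.186, limma adjusted p = 0.00682). In the mutant it read 9.24, 9.10, 9.35 and 9.22 with food and 8.93, 8.65, 8.69 and 8.71 without (log2 fold change -0.48, adjusted p = 0.0688). Its starved mutant arrays were all below its fed ones, and the strain difference in its response was 0.30 (95% interval -0.26 to 0.86, adjusted p = 0.788). *scl-1*, whose values lie near the bottom of the scale, read 4.18, 4.21, 4.24 and 4.27 in fed and 4.76, 4.37, 4.52 and 4.36 in starved N2 (1.21-fold higher, log2 fold change 0.28, standard error 0.0893, adjusted p = 0.0337 from limma). The mutant gave 4.31, 4.24, 4.25 and 4.34 with food and 4.23, 4.51, 4.26 and 4.34 without for *scl-1* (log2 fold change 0.05, adjusted p = 0.731). The call of *scl-1* in N2 was lost without fed replicate 1, 2, 3 or 4 (adjusted p = 0.0770, 0.0715, 0.0639 and 0.0506 from limma) and without starved replicate 1 or 3 (adjusted p = 0.108 and 0.0642).

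In the mutant and not in N2, 4 genes passed: *dct-8* upward and *dod-22*, *dod-3* and *dct-11* downward. *dct-8* read 4.90, 4.71, 4.52 and 4.26 in the fed and 5.70, 6.90, 6.03 and 6.79 in the starved mutant, a rise of 3.38-fold (log2 fold change 1.76, standard error 0.296, adjusted p = 0.000579 from limma). In N2 it read 4.61, 4.74, 3.80 and 4.62 with food and 5.12, 3.97, 4.63 and 5.09 without (log2 fold change 0.26, adjusted p = 0.598). The starved mutant arrays were thus the highest of all 16 for *dct-8*, and the N2 groups overlapped. Its values in N2 and in the fed mutant, 3.80 to 5.12, were low on the scale, where the 25th percentile of all genes was 4.23. Its SD within groups, pooled over the 4 groups, was 0.472, the largest of the set and above that of 98.0% of all genes. The difference between the responses was 1.50 on the log2 scale (standard error 0.419, 95% interval 0.61 to 2.39), the largest of the set, with an unadjusted p of 0.00255 and an adjusted p of 0.735 from limma. Across all genes tested, 0 passed for a difference in response (0.0%), while 1641 genes, 6.44%, had an unadjusted p under 0.05, and *dct-8* was the only gene of the set among them.

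*dod-22* fell in the starved mutant from 7.03, 6.88, 6.82 and 6.60 to 6.69, 6.45, 6.46 and 6.27 (1.29-fold lower, log2 fold change -0.37, standard error 0.110, adjusted p = 0.0233 from limma). In N2 it went from 7.38, 7.34, 7.28 and 7.28 to 6.84, 6.996, 7.22 and 7.20 (log2 fold change -0.25, adjusted p = 0.112). In the mutant, starved replicate 1 lay above fed replicate 4, and in N2 the groups were apart. Its mutant call was lost without fed replicate 1 or 2 (adjusted p = 0.0793 and 0.0559) and without starved replicate 4 (adjusted p = 0.0821). *dod-3* fell in the mutant from 6.83, 6.58, 6.51 and 6.70 to 6.27, 6.31, 6.21 and 5.88 (1.40-fold lower, log2 fold change -0.49, standard error 0.148, adjusted p = 0.0242 from limma). In N2 *dod-3* went from 6.33, 6.73, 6.11 and 6.67 to 5.75, 6.28, 6.17 and 6.14 (log2 fold change -0.38, adjusted p = 0.0818). The mutant arrays of *dod-3* were apart and the N2 arrays overlapped, and its mutant call was lost without fed replicate 1 or 4 (adjusted p = 0.0732 and 0.0571) and without starved replicate 4 (adjusted p = 0.0857). *dct-11* fell in the mutant from 8.90, 9.11, 8.75 and 9.05 to 8.66, 8.62, 8.72 and 8.72 (1.21-fold lower, log2 fold change -0.27, standard error 0.0865, adjusted p = 0.0288 from limma), and its N2 log2 fold change was -0.13 (adjusted p = 0.302). The mutant arrays of *dct-11* did not overlap, and the call was lost without fed replicate 2 or 4 (adjusted p = 0.0939 and 0.0850) and without starved replicate 1 or 2 (adjusted p = 0.0541 and 0.0674), as well as under 5 other alternatives.

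The other 12 genes passed in neither strain, with log2 fold changes between -0.38 and 0.41. They were *dod-18*, *dod-20*, *dct-6*, *dct-7*, *dct-9*, *dct-10*, *dct-12*, *dct-13*, *dct-14*, *dct-15*, *dct-16* and *dct-19*. *dct-16* was among the nearest to the threshold, with log2 fold changes of -0.33 in N2 (adjusted p = 0.143 from limma) and -0.38 in the mutant (adjusted p = 0.0822), as was *dct-14*, with 0.21 in N2 (adjusted p = 0.388) and 0.41 in the mutant (adjusted p = 0.0744). *dct-12* and *dct-13* lay below a mean log2 level of 4.23, the 25th percentile of all genes. *dct-13* was the dimmest gene of the set, with array values from 2.72 to 3.34, and *dct-1* the brightest, although levels of different probe sets cannot be set against each other.

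Few genes differed between the strains. In fed worms 0 of 28 genes passed, where 0.0902% of all genes did. In starved worms 1 passed, *dct-8*, which was higher in the mutant, where 0.0941% of all genes passed, with 0.0196% of all genes higher. At an unadjusted p under 0.05, 4 genes of the set differed in fed and 5 in starved worms by limma, beside 4.72% and 12.1% of all genes by limma. The methods' t-test gave 3 in each, and its share of all genes is not given here. Arrays of the strains did not overlap for 3 genes of the set in fed worms and 4 in starved worms, where 4.26% and 4.24% of all genes showed no overlap. The median log2 fold change of the mutant over N2 was -0.01 with food and -0.06 without, beside 0.00 and -0.02 over all genes.

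*dct-8* was not called between fed strains, with a log2 fold change of 0.15 (95% interval -0.48 to 0.78). In starved worms its mean log2 value was 6.35 ± 0.585 (SD, n = 4) in the mutant and 4.70 ± 0.537 (SD, n = 4) in N2, and the arrays given above did not overlap. The level was 3.14-fold higher in the mutant (log2 fold change 1.65, standard error 0.296, adjusted p = 0.0468 from limma). An exact two-sided permutation test of 4 arrays against 4 gave p = 0.0286, the smallest that this design allows. Any gene without overlap gives this p, as 4.24% of all genes did here, and it was not adjusted, so it adds nothing to the call. The adjusted p from limma was just inside the threshold. Leaving out starved N2 replicate 2 or 3 gave adjusted p = 0.154 and 0.124, and leaving out starved mutant replicate 2, 3 or 4 gave 0.182, 0.0542 and 0.208, so that the call was lost in 5 of the 8 fits that left out a starved array. In these 8 fits the log2 fold change stayed between 1.41 and 1.87.

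The CUB-like genes *dod-22*, *dod-24* and *dod-17* had the lowest fold changes of the fed mutant over N2 in the set, and their fed arrays did not overlap, but no call was made. *dod-22* was 1.40-fold lower in the fed mutant (log2 fold change -0.48, standard error 0.110, adjusted p = 0.222 from limma). Without food it was 1.51-fold lower (log2 fold change -0.59, standard error 0.110, adjusted p = 0.0583), and each mutant array lay below each N2 array in both conditions. That value passed without starved N2 replicate 1 (adjusted p = 0.0218 from limma) and without starved mutant replicate 1 (adjusted p = 0.0245). *dod-24* gave log2 fold changes of -0.40 with food (adjusted p = 0.683) and -0.47 without (adjusted p = 0.220), and its arrays were apart in both conditions. *dod-17* gave -0.55 with food (adjusted p = 0.9999) and -0.28 without (adjusted p = 0.662), and its starved arrays overlapped.

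Outside these genes, *dod-20* was lower in the starved mutant on all 4 arrays than on any starved N2 array, though not than on every fed N2 array. Its log2 values were 4.22, 4.71, 4.21 and 4.47 in starved N2 and 4.02, 4.21, 3.95 and 4.18 in the starved mutant, so that the nearest arrays of the strains were equal at this rounding. The log2 fold change of *dod-20* was -0.31 (standard error 0.134, adjusted p = 0.374 from limma). For *dct-11* the fed mutant was at 8.95 ± 0.161 and fed N2 at 8.75 ± 0.107 (SD, n = 4 each), with overlapping arrays and a log2 fold change of 0.20 (adjusted p = 0.993). All strain differences that did not pass lay within -0.55 and 0.20 in fed worms and -0.59 and 0.34 in starved worms.

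**Figure D3:**
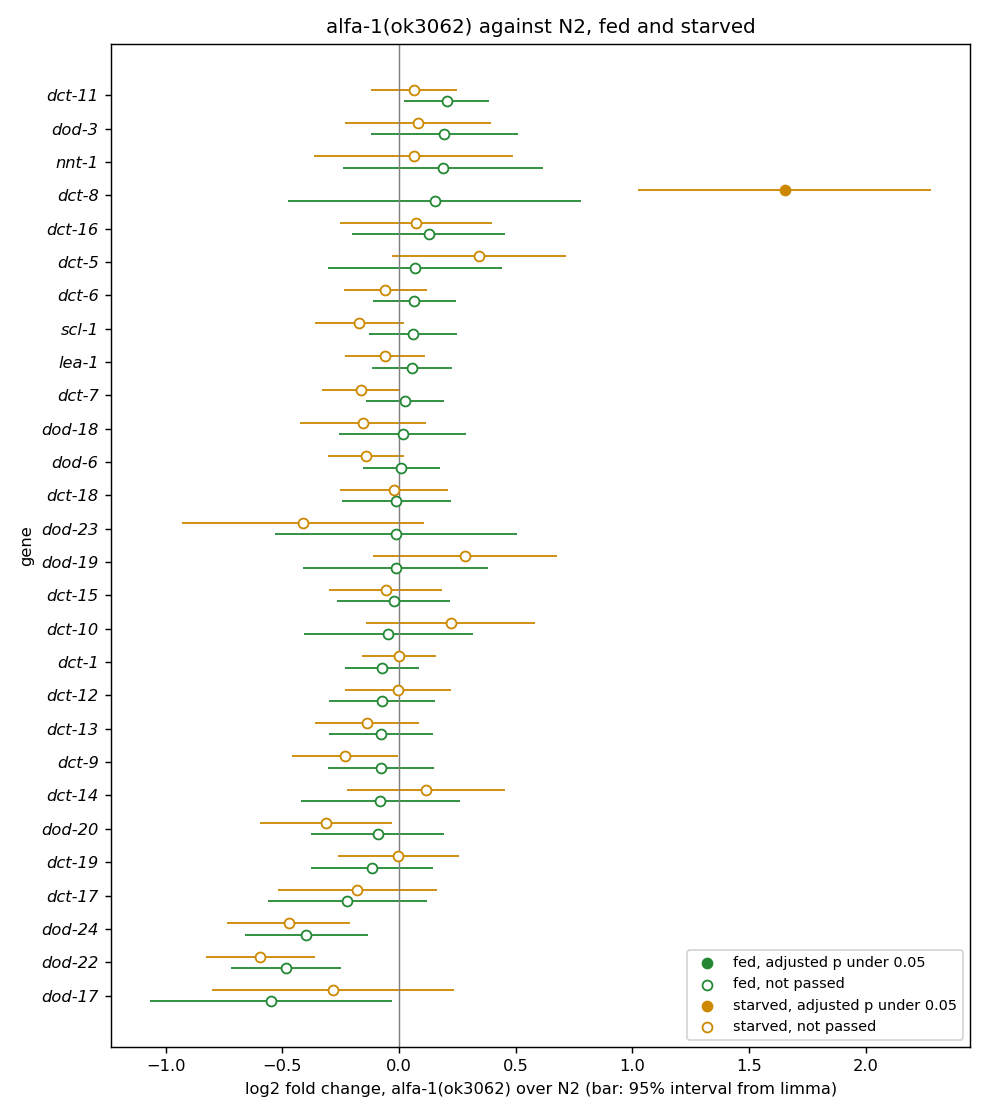
Log2 fold change of *alfa-1(ok3062)* over N2 (x axis) for each of the 28 genes (y axis) in fed and in starved worms, with 95% intervals from limma. Only *dct-8* in starved worms is filled, at 1.65, and *dod-22*, *dod-24* and *dod-17* lie lowest in fed worms. In starved worms *dod-23*, at -0.41, and *dod-20*, at -0.31, lie below *dod-17*, at -0.28.

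**Figure D4:**
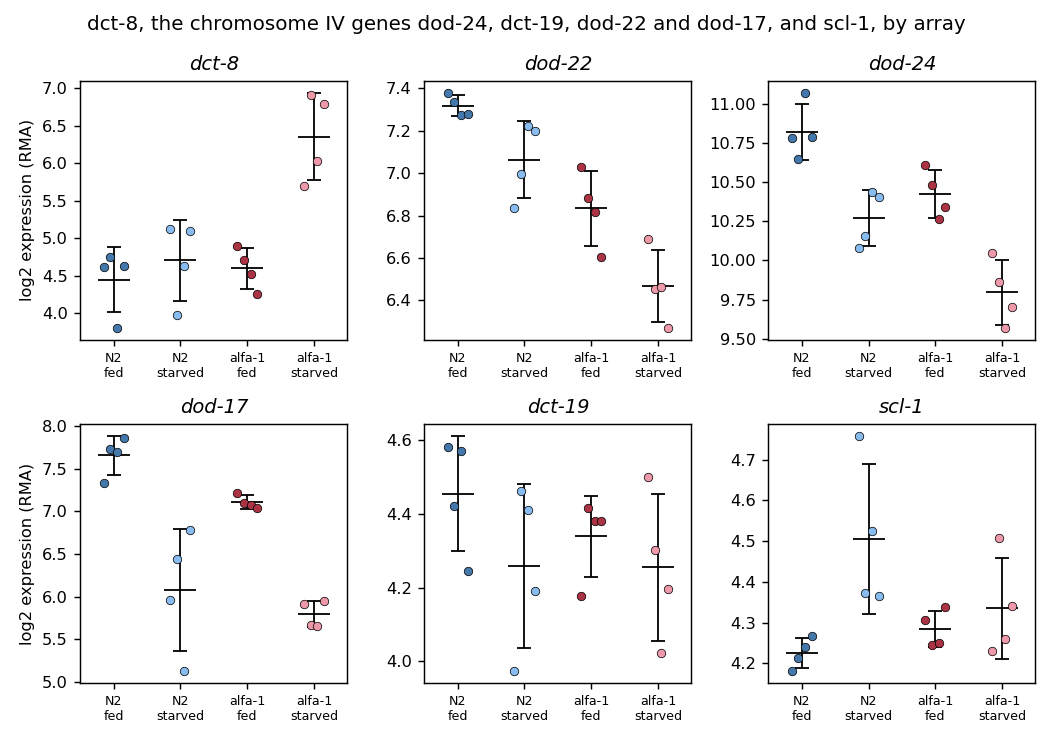
Log2 expression (y axis) by group (x axis) of *dct-8*, of *dod-22*, *dod-24*, *dod-17* and *dct-19* from 1 stretch of chromosome IV, and of *scl-1*, with 1 point per array, the mean as a bar and 1 SD as whiskers. The 4 starved mutant arrays of *dct-8*, at 5.70 to 6.90, are above the other 12, and those of *dod-22*, at 6.27 to 6.69, are below all N2 arrays.

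The set has 2 genes on chromosome I, 4 on II, 2 on III, 9 on IV, 8 on V and 3 on X. On chromosome IV, *dod-24* and *dct-19* are direct neighbours in the WBcel235 annotation, 5 protein-coding genes lie between *dct-19* and *dod-22*, 2 between *dod-22* and *dod-17*, and 13 between *dod-17* and *scl-1*. From *dod-24* to *dod-17* there are 11 neighbouring protein-coding genes, 4 of them in the set, and all 11 were tested. This stretch was singled out with the results in view, and the genes in it that are not of the set are named after their values were seen. In starved against fed worms, 7 of the 11 genes were lower and 0 higher in each strain, where 11.6% of all genes were lower in N2 and 14.3% in the mutant. The 7 were not all the same genes. *F55G11.7* passed only in N2 (log2 fold change -0.51, adjusted p = 0.0428 from limma, and -0.02 in the mutant), and *dod-22* only in the mutant. The lowest of the 11 in either strain was *F55G11.8*, with log2 fold changes of -1.69 in N2 and -1.68 in the mutant (adjusted p = 9.04e-07 and 6.05e-07 from limma), and *F55G11.2* was at -1.42 and -1.36 (adjusted p = 0.000205 and 0.000264).

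Between the strains, the 11 genes of the stretch had log2 fold changes below 0 in fed and in starved worms, and only *mbug-1* passed. The fold change of *dct-19* in starved worms was -0.00 and rose above 0 without any 1 of 4 of its 8 arrays. Over all 25498 genes, 12410 were below 0 in fed and 13776 in starved worms. Outside the set, 21 genes of the clones C32H11, K10D11 and F55G11 were tested, some of them in the stretch. Of these, 18 were below 0 and 3 above in fed worms, and 15 below and 6 above in starved worms. *mbug-1* read 9.50, 9.57, 9.78 and 9.44 in fed N2 and 8.56, 8.45, 8.53 and 8.56 in the fed mutant (log2 fold change -1.04, standard error 0.138, adjusted p = 0.00327 from limma). After starvation it read 8.69, 8.76, 9.05 and 8.95 in N2 and 7.93, 7.15, 7.51 and 7.79 in the mutant (log2 fold change -1.27, standard error 0.138, adjusted p = 0.000441). No mutant array of *mbug-1* reached an N2 array. CUB-like genes are a family of related sequences and the probes were not checked for shared matches, so that signal from 1 gene may reach the probe set of another. *dct-19*, in the same stretch, passed in no comparison, with log2 fold changes of -0.20 and -0.08 for starvation in N2 and the mutant and -0.12 and -0.00 between fed and starved strains.

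**Figure D5:**
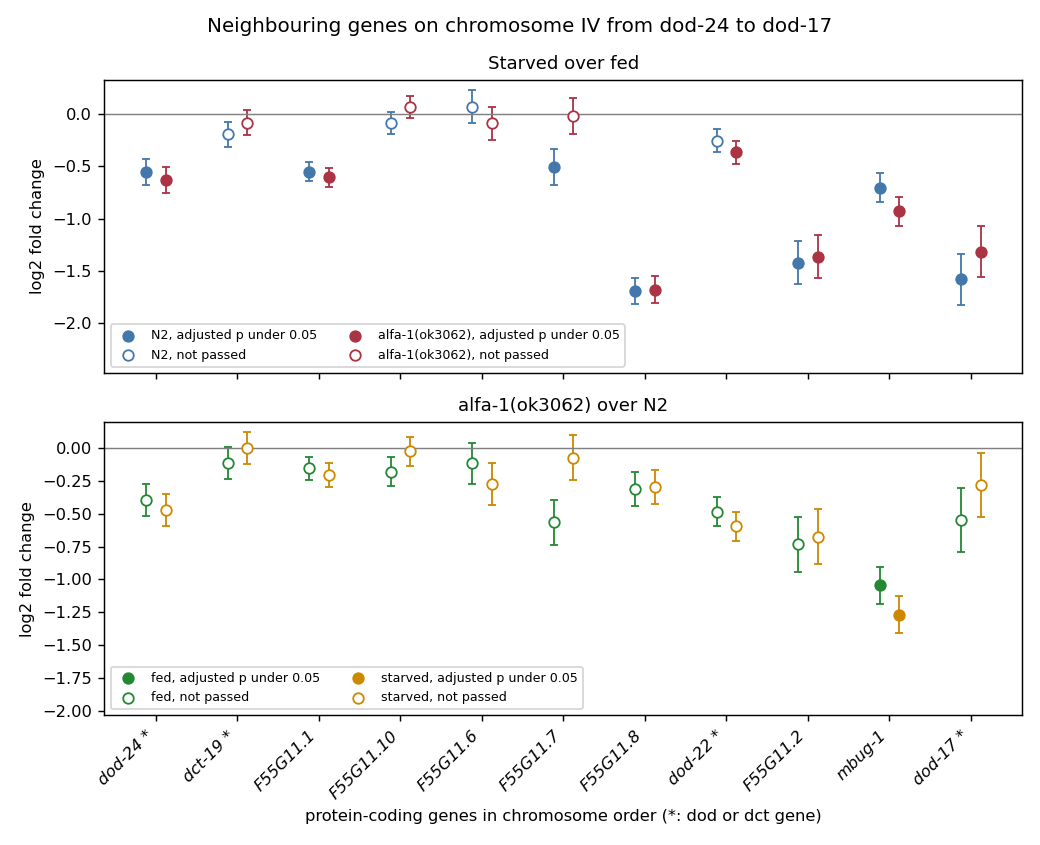
Log2 fold change (y axis, with standard errors from limma) of the 11 neighbouring genes from *dod-24* to *dod-17* in chromosome order (x axis), starved over fed in the upper panel and mutant over N2 in the lower panel. Filled points passed at an adjusted p under 0.05, which is 7 genes in each starvation comparison, not all the same, and only *mbug-1* between the strains.

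Of 23 genes of insulin signalling to DAF-16, the pathway above these genes, 7 were higher and 1 lower in starved N2, and 5 were higher and 1 lower in the starved mutant. That is 34.8% in N2, where 22.4% of all genes passed, and 26.1% in the mutant, close to the 25.3% of all genes. *daf-2* itself rose, with a log2 fold change of 0.75 in N2 (adjusted p = 5.82e-05 from limma) and 0.64 in the mutant (adjusted p = 0.000205). *daf-16* rose by 0.53 (adjusted p = 7.51e-05) and 0.58 (adjusted p = 3.59e-05). The insulin receptor substrate gene *ist-1* rose by 0.60 and 0.73, the kinase gene *pdk-1* rose by 0.63 and 0.35. The kinase gene *sgk-1* was lower after starvation in both strains, at -0.36 in N2 (adjusted p = 0.00167) and -0.43 in the mutant (adjusted p = 0.000388). No gene of this list passed between the strains in fed or starved worms.

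Of 22 other genes known to be raised by DAF-16, 20 were tested. Of these, 6 were higher and 2 lower in starved N2, and 8 were higher and 3 lower in the starved mutant, while 22.4% and 25.3% of all genes passed. The metallothionein gene *mtl-1* rose by 4.32 in N2 and 3.77 in the mutant on the log2 scale (adjusted p = 4.03e-08 and 9.57e-08 from limma), and the small heat shock gene *hsp-12.6* by 2.64 and 2.50. *sip-1*, another small heat shock gene, rose by 0.78 and 0.60, while the aquaporin gene *aqp-1* fell by 0.88 and 0.84. Of 8 *dao* genes, 4 were tested, and 1 was higher and 2 lower in each strain, *dao-3* falling by 0.83 in N2 and 0.67 in the mutant.

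An immune list held reporter genes of the response to infection and genes of the p38 pathway, and 20 of its genes were tested. Of these, 2 were higher and 9 lower in starved N2, and 2 were higher and 8 lower in the starved mutant. In either direction 22.4% and 25.3% of all genes passed. The lowest in N2 included the lysozyme gene *lys-2*, at -1.28 (adjusted p = 2.8e-05 from limma), and *K08D8.5*, at -1.03. In the mutant *K08D8.5* was at -1.43 and *lys-2* at -1.18, while the kinase gene *sek-1* was higher by 0.74 in starved N2 (adjusted p = 0.000122) and by 0.77 in the starved mutant (adjusted p = 8.4e-05). No gene of the immune list, of the *dao* list or of the list of genes raised by DAF-16 passed between the strains in fed or starved worms.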

How the data were processed

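Total RNA of whole worms was hybridised to 16 Affymetrix arrays, 4 per group. The deposited values are log2 expression values made by the authors, and RMA and Partek are the tools in the submitters' processing notes, without a version. RMA makes the distributions of all arrays alike, so a shift shared by most genes would be removed. No scanner intensity was used. Precision is limited by how many arrays there are. Of 29317 probe sets, 25546 listed 1 gene, 646 several and 3125 were not listed. Of the first, 25495 matched RefSeq by gene identifier, and 0 symbols changed. For 37 genes with several probe sets, none of the 28 studied, the brightest was kept, leaving 25498 genes. Every column of values had a sample (0 without).

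Limma 3.58.1 in R 4.3.3 fitted 4 group means over the 16 arrays, for 5 comparisons, and was tested on simulated data. P-values were adjusted by Benjamini-Hochberg over 25498 genes, and 0.05 was the threshold for a call. Tables were made in pandas 2.3.3 and numpy 2.4.6 under Python 3.11.15, and figures in matplotlib 3.10.9. The genes, by a rule on their names alone, and the lists beside them were chosen with earlier results of these data known. Named with values are the genes of the set that passed, the 4 of smallest p in each comparison, the brightest and dimmest, *alfa-1*, *daf-2* and *daf-16*, and those of smallest p in each list. The alternatives were each array left out, a replicate block, the 8 arrays of a comparison, further normalizations, array weights, an intensity trend, all probe sets, a filter on dim ones, the methods' t-test, unadjusted p-values and, chosen after seeing the data, the unadjusted t-test and both arrays that stood apart left out. The arrays taken as standing apart were starved N2 replicate 3 and starved mutant replicate 2. Starved mutant replicate 1 correlated with its group over the same range as replicate 2. Promoter motifs were not analysed here. Order on a chromosome follows the assembly WBcel235, and no positions are given, because the build behind the array's annotation is unknown here.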

Additional observations from a re-analysis of the deposited data

Results flagged for a closer look

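Within the groups, 7 of 112 combinations of a gene and a group held an array far from the other 3, where chance alone gives about 1 in 20. *dct-5* was one in both starved groups, with N2 replicate 1 at 7.51 on the log2 scale above the others at 6.81 to 6.91, and mutant replicate 4 at 7.72 above the others at 7.23 to 7.27. *dct-1* in starved mutant replicate 3 was at 10.89, above the others at 10.72 to 10.73. *dct-15* in starved mutant replicate 2 was at 4.98, below the others at 5.45 to 5.55. The lowest correlation within that group was between this array and replicate 1, at 0.986. *dct-18* in fed N2 replicate 1 was at 8.70, below 8.90 to 8.92, and *dct-19* in fed mutant replicate 1 was at 4.18, below 4.38 to 4.42. *dct-8* in fed N2 replicate 3 was at 3.80, below 4.61 to 4.74, which enters its starvation comparison in N2.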

How the results depend on the processing

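The fold changes of the set that passed kept their sign under every alternative run for them. Of 112 fold changes (28 genes in 4 comparisons), 32 turned when 1 array of their comparison was left out, none of them a call. The largest of them in size was *dct-8* between fed strains, at 0.152 (-0.06 without fed N2 replicate 3). Others were *scl-1* in the mutant (-0.01 without starved replicate 2) and *dct-19* between starved strains (0.06 without N2 replicate 2). With each of the 16 arrays left out in turn, the number of genes of the set that passed was 11 to 13 for starvation in N2, 11 to 16 for starvation in the mutant, 0 to 0 between fed strains, 0 to 2 between starved strains (0 in 11 of 16 fits) and 0 to 0 for the difference in response. The 1 gene passing between starved strains became 0 under the 8 arrays alone, quantile normalization again, the methods' t-test and with both arrays that stood apart left out, and 2 with array weights and without dim probe sets. Unadjusted p-values gave 4 genes between fed strains by limma and 3 by the methods' t-test, 5 and 3 between starved strains, and 1 for the difference in response by limma. By limma the shares of all genes were 4.72%, 12.1% and 6.44%, and those by the unadjusted t-test are not given here. The methods' t-test gave 7 genes for starvation in N2 in place of 12, losing *dct-17* (adjusted p = 0.0505), *nnt-1* (0.101), *dod-19* (0.124), *dod-23* (0.0942) and *scl-1* (0.110), and 3042 of all genes in place of 5707. In the starved mutant it lost *dod-22* (0.0917) and *dct-11* (0.0719), and *dct-11* was also lost with the 8 arrays alone (0.0593), quantile normalization again (0.0869) and both arrays that stood apart left out (0.0550), and *dod-22* with quantile normalization again (0.0531). Between starved strains 24 of all genes passed, against 94 with array weights, 12 with both arrays that stood apart left out, 6 from the 8 arrays alone, 11 under the block and 3 by the t-test. Leaving out 1 array moved these 24 to between 11 and 71, with 71 without N2 starved replicate 1, 67 without mutant starved replicate 1, 14 without mutant starved replicate 4, 11 without mutant starved replicate 2 and 15 without mutant fed replicate 1. Between fed strains 23 passed, against 45 with array weights and 6 by the t-test.

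With the replicate number as a block, 0, 0, 11, 12 and 0 genes passed in the fed strain, starved strain, N2 starvation, mutant starvation and difference comparisons, and *dct-8* between starved strains (adjusted p = 0.0980), *scl-1* in N2 (0.0635) and *dct-11* in the mutant (0.0508) were lost. Deviations of same-numbered arrays correlated at -0.47 to 0.15 over 24 pairs, 4 of them above 0.1, and 2 of 16 arrays correlated best with their own number, so the numbers were not read as pairs. The causes of these shifts were not tested. The search for promoter motifs was not run.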
